A study of Mus musculus with 12 samples.

Results

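The 10 genes examined here, Srebf1, Fasn, Acaca, Acly, Scd1, Elovl6, Me1, Thrsp, Gpam and Gpat4, serve de novo lipogenesis, the synthesis of fatty acids and triglycerides from carbohydrate carbon. They were chosen by name for that function, out of 21936 mouse genes in the count table and with earlier results of these data known. All 10 passed the filter on low counts in each comparison. The livers came from male C57BL/6 mice, 6 weeks old on arrival. Every mouse, including those of LFG, was injected intraperitoneally with 1 mL/kg of carbon tetrachloride (CCl4), a hepatotoxin that scars the liver, 2 times per week over 8 weeks. LFG, the liver fibrosis group, was taken directly afterwards. REG, the regression group, then received 200 µL of phosphate-buffered saline through a tail vein, 2 times each week over 4 weeks. The hADMSCs-Exo group received exosomes from human adipose mesenchymal stem cells (250 µg of protein) in that volume and on that schedule. Each group had 3 libraries, and the study compared the groups in search of the molecular mechanism by which the exosomes act on liver fibrosis. REG and hADMSCs-Exo were thus sampled 4 weeks later than LFG, so that treatment, the time after CCl4 and age cannot be told apart in comparisons with LFG. Another group, given the stem cells themselves (hADMSCs, 3 samples), is not analysed here. The count table heads the exosome columns MSC_E, and reading them as hADMSCs-Exo, on which every value of that group rests, takes the E for exosomes.

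In hepatocytes, insulin and feeding raise the transcription factor SREBP-1c, the product of Srebf1, which drives most enzymes of the route. SREBP precursors are held in the endoplasmic reticulum by INSIG proteins and carried to the Golgi by SCAP, where proteases release the active factor. ATP citrate lyase (Acly) makes cytosolic acetyl-CoA, acetyl-CoA carboxylase 1 (Acaca) makes malonyl-CoA, and fatty acid synthase (Fasn) builds palmitate with NADPH that malic enzyme (Me1) helps to supply. ELOVL6 elongates palmitate, and stearoyl-CoA desaturase 1 (Scd1) introduces the double bond of oleate and palmitoleate. Thrsp, or Spot 14, is a thyroid hormone- and carbohydrate-responsive gene that promotes lipogenesis. Gpam encodes GPAT1, the mitochondrial glycerol-3-phosphate acyltransferase, and Gpat4 a glycerol-3-phosphate acyltransferase of the endoplasmic reticulum, both of which start triglyceride assembly.

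The DNA before the start is shown for the regulator (Srebf1), the synthase (Fasn), Thrsp and Gpam, as examples that hold letters read by known regulators of lipogenesis. RefSeq start sites were at hand for 8 of the 10 genes, with 12 start sites in all, on GRCm38.p6, of which Srebf1 had 3 and Gpam 2, and 1 start of each is shown. Each line gives the 150 bases that end just before the start, 5′ to 3′ in the direction of transcription. Capitals mark TCACCC, the core of many sterol regulatory elements, and CCAAT, the box bound by NF-Y, on either strand.
Srebf1, chr11:60210472-60210621, minus strand: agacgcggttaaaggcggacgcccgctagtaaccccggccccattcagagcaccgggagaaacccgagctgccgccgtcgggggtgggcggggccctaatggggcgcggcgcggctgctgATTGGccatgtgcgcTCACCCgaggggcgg
Fasn, chr11:120824548-120824697, minus strand: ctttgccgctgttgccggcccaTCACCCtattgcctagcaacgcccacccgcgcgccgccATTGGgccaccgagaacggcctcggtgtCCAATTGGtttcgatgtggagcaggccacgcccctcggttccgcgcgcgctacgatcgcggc
Thrsp, chr7:97417551-97417700, minus strand: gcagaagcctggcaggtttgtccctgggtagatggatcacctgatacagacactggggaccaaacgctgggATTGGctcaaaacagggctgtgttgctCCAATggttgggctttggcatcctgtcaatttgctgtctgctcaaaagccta
Gpam, chr19:55127239-55127388, minus strand: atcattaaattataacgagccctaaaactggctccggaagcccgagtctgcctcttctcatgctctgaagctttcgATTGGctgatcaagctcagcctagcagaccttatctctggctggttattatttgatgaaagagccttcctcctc
In the 250 bases before the start, CCAAT on either strand was found at 6 of the 12 start sites and at 33.8% of all 32851 start sites in the table. In Fasn a pair of the CCAAT matches overlapped, 1 on each strand. TCACCC was found at 4 of the 12 and at 13.8% of all, and in Srebf1 its first base lay 15 bases before the start and the CCAAT match 30 bases before it. The longer form TCACNCCAC was at 0 of 12 (1.05% of all), and the E-box CACGTG was at 0 of 12 (6.02% of all). The GC box GGGCGG was at 5 of 12 (32.7% of all). These matches describe letters only, and the windows of Scd1 and Gpat4 are not shown here.

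All 10 genes are protein coding, and their positions in the table are those of GRCm38 and equal those of GENCODE M21. Acly (chromosome 11, 100476353 to 100528000, minus strand), Acaca (chromosome 11, 84129672 to 84401651, plus strand), Fasn (chromosome 11, 120805846 to 120824547, minus strand) and Srebf1 (chromosome 11, 60199089 to 60222581, minus strand) share 1 chromosome without being neighbours. Scd1 (44394455 to 44407879) and Gpam (55067268 to 55127238) are on the minus strand of chromosome 19. Elovl6 is on chromosome 3 (129532355 to 129638495, plus strand), Thrsp on chromosome 7 (97412938 to 97417730, minus strand), Gpat4 on chromosome 8 (23171265 to 23208346, minus strand) and Me1 on chromosome 9 (86581371 to 86695953, minus strand). Whether the counting used strand is not given in the sources used here. Srebf1 shares 109 exon bases with Rai1 on the opposite strand, and no other gene of the count table shares exon bases with any of the 10 genes.

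Total counts per library ranged from 13837445 to 19840917. LFG 3 stood apart from the other LFG libraries: over all genes its log2 CPM (reads scaled to library size by TMM) correlated with them by 0.834 and 0.874, against 0.896 to 0.940 with the 6 libraries of the other groups, a description across genes that are not independent replicates. It is also the shallowest library, with the fewest genes detected (13924, against 14539 to 15248 in the others). The summed level of 10 hepatocyte markers was 88464 to 161970 in LFG, 171840 to 177940 in REG and 129470 to 147810 in hADMSCs-Exo, in CPM, with 0 of the 10 at 0 in any library. Albumin (Alb) made up most of these sums, with mean levels of 91467, 134720 and 99679 CPM in LFG, REG and hADMSCs-Exo, and the median log2 fold change of the 10 markers was 0.02 for REG against LFG, with 5 above 0 and 5 below. Adipocytes make the same enzymes. Of 8 adipocyte markers, Lep and Retn had 0 counts in every library, Plin1 at most 1 and Adipoq at most 2. The whole adipocyte list summed to 23.6 to 56.9 CPM in REG, 27.5 to 39.4 in hADMSCs-Exo and 28.9 to 45.9 in LFG. The other 4 were detected, Pparg with 92 to 511 counts, Fabp4 with 49 to 483, Adrb3 with 19 to 279 and Cfd with 0 to 94. A list of 9 stellate cell and myofibroblast markers summed to 1425, 945 and 59.2 CPM in LFG 1, 2 and 3, 206 to 359.8 CPM in REG and 80.7 to 219 CPM in hADMSCs-Exo, so that LFG 3 was the lowest of all 9 libraries. LFG 3 also had the lowest sums of macrophage markers (147 CPM, against 1566 and 1251 in LFG 1 and 2) and of lymphocyte markers (8.49 CPM, against 65.5 and 73.9). The part of these differences in the comparisons with LFG was not tested. In whole liver, fewer cells of a type and less RNA per cell cannot be told apart.

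The mRNAs of the route differed widely in abundance, on the FPKM scale, which divides counts by gene length and library total. Scd1 had the highest level of the 10, with a median of 846 FPKM over the 9 libraries and a rank of 53 among all 21936 genes by mean FPKM. Thrsp followed with a median of 258 FPKM, whereas the rate-limiting carboxylase Acaca had the lowest, 7.76 FPKM. The other 7 genes had medians between 13.8 FPKM (Elovl6) and 63.4 FPKM (Acly). Reads of the 10 genes made up 0.302% (LFG 3) to 1.53% (REG 3) of a library, and Scd1 alone 0.103% to 1.04%. The spread over libraries was wide as well: the highest library stood above the lowest by 13.1 times for Thrsp and 8.62 times for Scd1, on the TMM-scaled CPM scale, but by only 2.09 times for Gpat4. On that CPM scale REG 3 was the highest library for 9 of the 10 genes, all but Gpat4. The lowest on the same scale was LFG 1 for 5 genes, hADMSCs-Exo 3 for 3, and LFG 3 and hADMSCs-Exo 1 for 1 each.

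**Figure D1:**
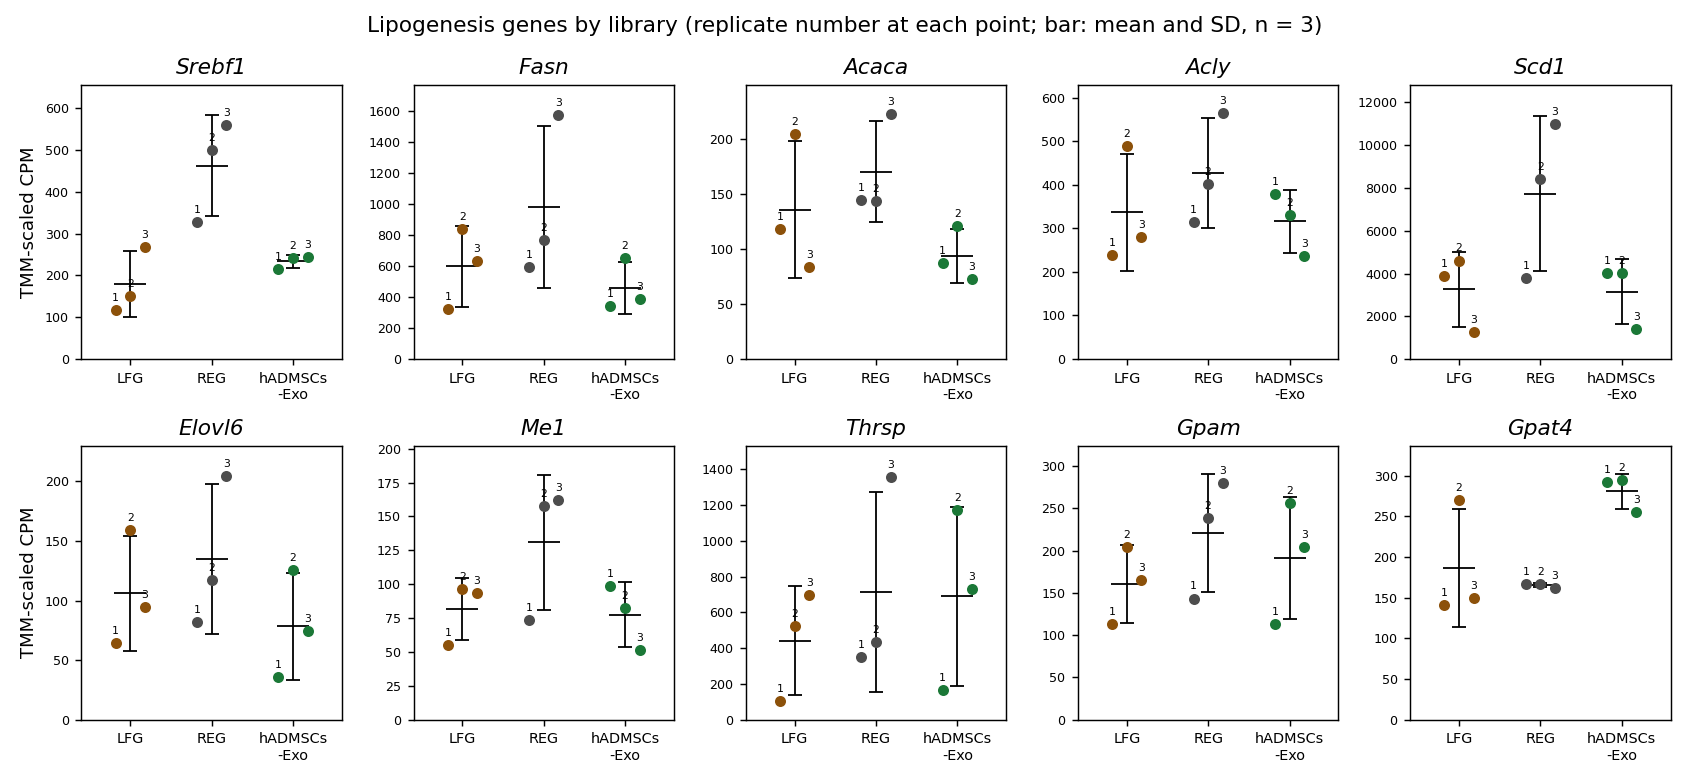
TMM-scaled CPM (vertical axes from 0, linear) of the 10 lipogenesis genes in each library of LFG, REG and hADMSCs-Exo. Points are libraries with their replicate numbers, and bars are the mean and SD of 3 libraries. REG 3 is the highest point in 9 of 10 panels, and only for Gpat4 do all hADMSCs-Exo points lie above all REG points.

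The first comparison, REG against LFG, addresses how these genes stood 4 weeks after the end of CCl4 without exosomes. Of the 10 genes, 9 had a log2 fold change above 0, as did 44.1% of the 12517 genes tested. Their median was 0.58, beside -0.07 for all genes tested. In edgeR's quasi-likelihood test, 0 of 10 had both an adjusted p under 0.05 and a log2 fold change of 1 or more in size, and this was so for 0% of all genes. The same count was 1 with DESeq2 (1.91% of all genes), 1 with limma's voom and quality weights (10.3% of all genes), and 0 with limma on log2(FPKM + 1) (0% of all genes). At an unadjusted p under 0.05 with edgeR there was 1 gene higher in REG (4.62% of all genes were) and 0 lower (6.70% of all genes), and this 1 gene was Srebf1.

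Srebf1, the regulator of the route, had 118, 149.8 and 269 CPM in LFG 1, 2 and 3, and 329, 501 and 559.6 CPM in REG 1, 2 and 3. Every REG library thus lay above every LFG library, and LFG 3 lay nearest to REG. Groups that did not overlap were found for 1 of the 10 genes with REG higher (8.89% of all genes) and for 0 with REG lower (10.1% of all genes). The log2 fold change was 1.38 (standard error 0.38, 95% interval 0.47 to 2.28), with an adjusted p of 0.333 in edgeR. It passed both thresholds without LFG 3 (log2 fold change 1.83, adjusted p = 0.0154 in edgeR), with DESeq2 (1.39, adjusted p = 0.0257) and with limma's voom and quality weights (1.68, adjusted p = 0.0102), where 1391, 239 and 1285 of all genes passed as well. Over all 14 alternatives its log2 fold change lay between 1.152 and 1.83, and its adjusted p between 0.0102 and 0.928.

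Scd1, the desaturase, had 3876, 4608 and 1274 CPM in LFG 1, 2 and 3, and 3810.1, 8411 and 10978 CPM in REG. REG 1 lay among the LFG libraries, and the other two REG libraries lay above all of them. The log2 fold change was 1.26 (standard error 0.59, 95% interval -0.15 to 2.67, adjusted p = 0.476 in edgeR). Fasn had 321, 837 and 634 CPM in LFG and 597, 770 and 1575 CPM in REG, so that only REG 3 lay outside the LFG range. For Fasn the log2 fold change was 0.73 (95% interval -0.44 to 1.89). The other genes with a positive value were Thrsp (0.70), Me1 (0.69), Gpam (0.47), Elovl6 (0.36), Acly (0.36) and Acaca (0.34), and Gpat4 had -0.16. All of these groups overlapped, and the intervals reached from -1.14 to 2.55 for Thrsp, the widest, so that fold changes past 1 on the log2 scale in either direction lie inside it. Without REG 3 the median of the 10 genes was 0.19 in place of 0.58, with 7 genes above 0. With voom and quality weights it was 0.34, again with 7 genes above 0.

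**Figure D2:**
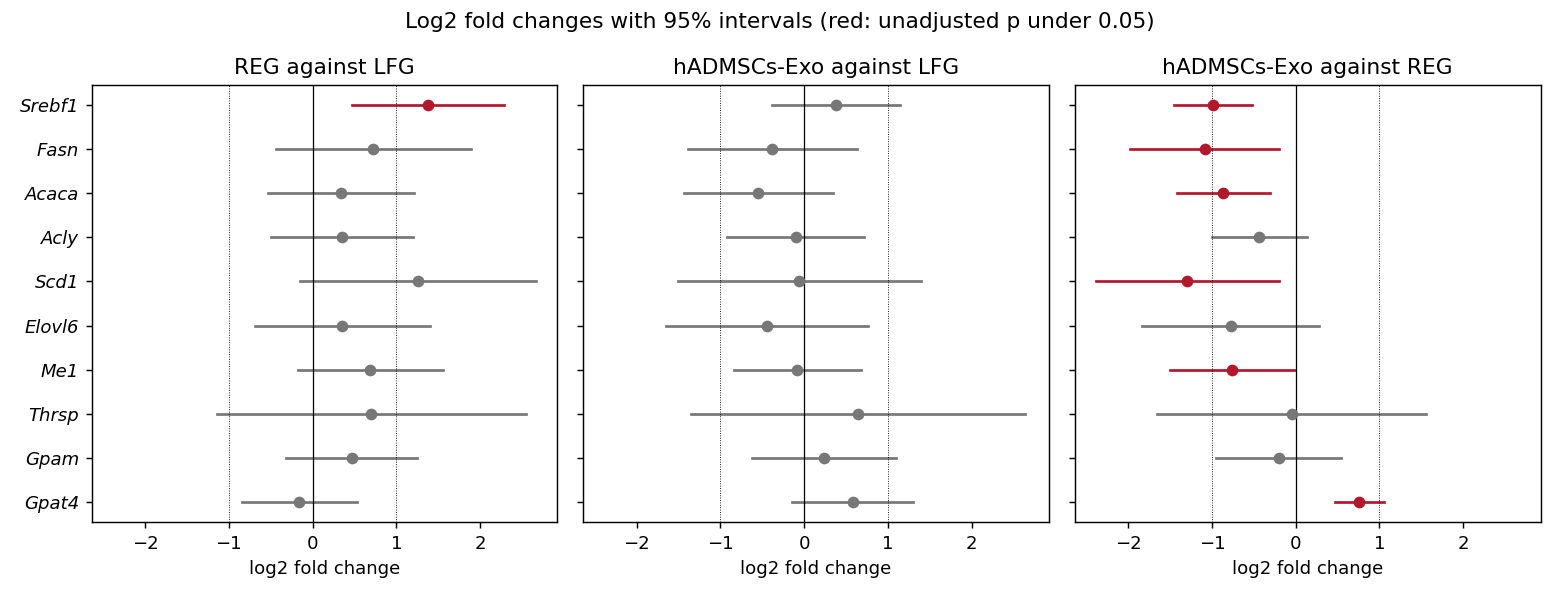
Log2 fold changes (horizontal axis) of the 10 lipogenesis genes in the 3 comparisons from edgeR's quasi-likelihood test, with lines for the 95% intervals. Dotted lines mark -1 and 1, and red marks an unadjusted p under 0.05, which 1 gene has for REG against LFG, 0 for hADMSCs-Exo against LFG and 6 for hADMSCs-Exo against REG.

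The second comparison, hADMSCs-Exo against LFG, addresses the same interval with exosomes. The genes were split: 4 of the 10 genes had a log2 fold change above 0 (43.1% of all genes) and 6 below, and their median was -0.07 beside -0.06 for all 12489 genes tested. In edgeR 0 of 10 passed the adjusted thresholds (0% of all genes) and 0 had an unadjusted p under 0.05 (5.98% of all genes did), either higher (2.30% of all genes) or lower (3.68% of all genes). DESeq2 likewise gave 0 past the adjusted thresholds (0.488% of all genes) and 0 at an unadjusted p under 0.05 (8.48%). Limma on log2(FPKM + 1) gave 0 (0% of all genes) and 0 (4.08%). Limma's voom with quality weights gave 0 (0.00801% of all genes) and 2, namely Acaca and Srebf1. The same 2 genes were counted by edgeR without LFG 3. Of all genes, 28.1% and 28.5% had an unadjusted p under 0.05 in these settings, so that 2 of 10 was below the background. With edgeR the smallest p was that of Gpat4, at 0.58 on the log2 scale (standard error 0.30, 95% interval -0.14 to 1.30, adjusted p = 0.810 in edgeR). Scd1 had -0.06 with an interval of -1.50 to 1.39, and it changed sign in 3 of 14 alternatives. The remaining genes lay between -0.55 (Acaca) and 0.64 (Thrsp), and for all 10 genes the groups overlapped, where 6.34% of all genes were apart with hADMSCs-Exo higher and 5.94% with hADMSCs-Exo lower.

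The third comparison, hADMSCs-Exo against REG, sets exosomes against saline at the same time point. Of the 10 genes, 9 had a log2 fold change below 0 and 1, Gpat4, above 0, where 51.1% of all 12337 genes tested lay above 0. Their median was -0.77, beside 0.01 for all genes. In edgeR 0 of 10 passed an adjusted p under 0.05 with the limit on fold change (0.00811% of all genes, or 1 gene). The count was also 0 with DESeq2 (0.544% of all genes), with voom (0.0243%) and with limma on log2(FPKM + 1) (0.00811%). At an unadjusted p under 0.05 there were 6 genes: Srebf1, Acaca, Fasn, Scd1 and Me1 lower in hADMSCs-Exo (4.69% of all genes were) and Gpat4 higher (5.34%). At an unadjusted p under 0.05, DESeq2 also gave 6 (9.71% of all genes), voom 6 (13.6%) and limma on log2(FPKM + 1) 5 (10.2%). The REG libraries are shared with the first comparison, so the 2 sets of values are not independent of each other.

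Srebf1 had 216, 241 and 244 CPM in hADMSCs-Exo 1, 2 and 3, below all of the 329, 501 and 559.6 CPM of REG. The hADMSCs-Exo libraries were close together (mean log2 CPM 7.87 ± 0.10, SD, n = 3) and REG was more spread (8.82 ± 0.41, SD, n = 3). The log2 fold change was -0.99 (standard error 0.20, 95% interval -1.45 to -0.53, adjusted p = 0.358 in edgeR), and the gene ranked 35 by p among all genes tested. With each library left out in turn it lay between -1.17 and -0.83, with an unadjusted p under 0.05 in all 6 fits. With DESeq2 it was -0.99 with an adjusted p of 0.00201, short of the limit on size, whereas in a joint fit of all 9 libraries the adjusted p was 1.00.

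Acaca, which makes malonyl-CoA, had 87.4, 121 and 73.1 CPM in hADMSCs-Exo and 145, 144 and 223 CPM in REG, again without overlap. For Acaca the log2 fold change was -0.86 (standard error 0.24, 95% interval -1.42 to -0.31, adjusted p = 0.407 in edgeR). Groups that did not overlap with hADMSCs-Exo lower were found for 2 of the 10 genes, Srebf1 and Acaca, and for 7.47% of all genes. Acaca, Srebf1 and Gpat4 had an unadjusted p under 0.05 in each of the 6 fits that left out 1 library.

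For Fasn, Scd1 and Me1 the groups overlapped. Fasn had 344, 653 and 386 CPM in hADMSCs-Exo against 597, 770 and 1575 in REG, a log2 fold change of -1.09 (standard error 0.39, 95% interval -1.98 to -0.20, adjusted p = 0.432 in edgeR). Scd1 had 4030, 4021 and 1403 CPM against 3810.1, 8411 and 10978, or -1.29 on the log2 scale (standard error 0.47, 95% interval -2.38 to -0.20, adjusted p = 0.448 in edgeR). Me1 had 98.4, 82.6 and 51.3 CPM against 73.3, 157 and 162, with a log2 fold change of -0.75 (95% interval -1.50 to -0.0062). For all 3 of these genes REG 1 lay within the hADMSCs-Exo range, and REG 2 and REG 3 lay above it. Without REG 3, 3 genes in place of 6 had an unadjusted p under 0.05 (10.7% of all genes) and the median of the 10 was -0.46. Without hADMSCs-Exo 3 there were also 3 (9.57% of all genes), with a median of -0.62, and in both fits they were Srebf1, Acaca and Gpat4.

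Gpat4 stood on the other side of 0. It had 292, 295 and 256 CPM in hADMSCs-Exo 1, 2 and 3, and 167, 167 and 162 CPM in REG, so that the lowest hADMSCs-Exo library lay above the highest REG library. Groups without overlap and with hADMSCs-Exo higher were found for 8.07% of all genes. Its log2 fold change was 0.76 (standard error 0.13, 95% interval 0.47 to 1.05, adjusted p = 0.353 in edgeR), ranking 9 by p among all genes tested. Over all alternatives it stayed between 0.72 and 0.82, under the limit of 1, with an adjusted p of 0.000303 by DESeq2 at one end and 1.00 in a joint fit of all 9 libraries at the other. Gpam, which encodes the mitochondrial enzyme for the same step, had 113, 256 and 204 CPM in hADMSCs-Exo and 143, 239 and 280.3 CPM in REG. Its log2 fold change was -0.20 with an interval of -0.95 to 0.55, and the groups overlapped. On the FPKM scale the ratio of Gpat4 to Gpam was 1.149 to 2.57 in hADMSCs-Exo, 0.578 to 1.16 in REG and 0.899 to 1.32 in LFG, so that the ranges of hADMSCs-Exo and REG overlapped at their ends. Of the other acyltransferases of this step, Gpat3 had a log2 fold change of 0.57 (adjusted p = 0.531 in edgeR) and Gpat2 of 0.08 (adjusted p = 0.951 in edgeR).

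Thrsp, Elovl6 and Acly completed the set. Thrsp had 168, 1169 and 730 CPM in hADMSCs-Exo, 351, 435 and 1355 CPM in REG and 103, 523 and 697 CPM in LFG, so that the 3 groups overlapped. Against REG the log2 fold change of -0.05 had an interval of -1.65 to 1.56. Elovl6 had -0.78 (-1.83 to 0.28) and Acly had -0.44 (-1.004 to 0.13), both with overlapping groups. Of the 10 hepatocyte markers, 5 were above 0 and 5 below in this comparison (median 0.0027), with 2 higher at an unadjusted p under 0.05, Hnf4a (0.43) and Cyp2e1 (0.67), and 0 lower. Both of these were without overlap, and so were 2 that were lower, Alb (-0.44) and Apoa1 (-0.19). All 9 stellate cell and myofibroblast markers had a log2 fold change below 0 (median -1.09), 6 of them with an unadjusted p under 0.05 and without overlap. Of 7 lymphocyte markers 6 were above 0 (median 0.56), 3 of them without overlap. Among 7 markers of sinusoidal endothelium 6 were below 0 (median -0.58), with 0 without overlap. Macrophage markers had 6 of 8 above 0 (median 0.21), 1 of them without overlap. Of 5 cholangiocyte markers tested, 3 were below 0 (median -0.38), 1 of them without overlap. Over all genes, 8.07% were higher and 7.47% lower without overlap, and 5.34% and 4.69% at an unadjusted p under 0.05. The part of these marker differences in the values of the lipogenesis genes was not tested.

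Genes that control the route were described from a list of 19, all of which were tested. Against REG, 1 of the 19 was higher and 1 lower at an unadjusted p under 0.05 in hADMSCs-Exo. For this and the following lists, the shares over all genes were 5.34% higher and 4.69% lower for hADMSCs-Exo against REG, 4.62% and 6.70% for REG against LFG, and 2.30% and 3.68% for hADMSCs-Exo against LFG, and counts of 1 in lists of this size lie near them. Insig2, which retains SREBP in the endoplasmic reticulum, had 89.7, 117 and 72.2 CPM in hADMSCs-Exo and 49.6, 67.3 and 42.0 CPM in REG, without overlap, and a log2 fold change of 0.81 with an adjusted p of 0.402 in edgeR (standard error 0.22). Scap, which escorts SREBP to the Golgi, had 74.3, 76.9 and 77.9 CPM against 81.5, 115 and 109 CPM, also without overlap, and a log2 fold change of -0.41 with an adjusted p of 0.432 in edgeR (standard error 0.14). These are values of mRNA, and the processing of SREBP was not measured here. Insig1, itself a SREBP target, had -0.32 with overlapping groups. The LXR gene Nr1h3 had a log2 fold change of -0.05 and an interval of -0.32 to 0.21. Mlxipl, which encodes the glucose-sensing factor ChREBP, had 0.30 (-0.09 to 0.69).

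For REG against LFG, 1 of the 19 control genes was higher and 2 were lower at an unadjusted p under 0.05. Irs2, an insulin receptor substrate, had 10.2, 15.1 and 6.42 CPM in REG and 23.9, 93.3 and 29.1 CPM in LFG (log2 fold change -2.19, adjusted p = 0.323 in edgeR). Insig2 had a log2 fold change of -1.05 (adjusted p = 0.385 in edgeR) with overlapping groups. Nr1h2, the other LXR gene, had 0.51 (adjusted p = 0.433 in edgeR). In hADMSCs-Exo against LFG, 1 was higher and 1 lower: Srebf2, which encodes the SREBP of sterol synthesis, had 0.42 (adjusted p = 0.805 in edgeR) and Irs2 had -2.70 (adjusted p = 0.805 in edgeR).

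Of 15 genes for the supply of carbon and NADPH, 3 were lower and 0 higher in hADMSCs-Exo than in REG at an unadjusted p under 0.05, with a median log2 fold change of -0.27, and Acss2 and Pgd were among the 3. Acss2, which makes acetyl-CoA from acetate and is a known SREBP target, had 139, 226 and 159 CPM in hADMSCs-Exo, 314, 494 and 415 CPM in REG and 29.2, 129 and 131 CPM in LFG. The 3 groups did not overlap, with REG highest and LFG lowest. Its log2 fold change was -1.22 against REG (standard error 0.23, adjusted p = 0.358 in edgeR), 2.09 for REG against LFG (standard error 0.56, adjusted p = 0.320 in edgeR) and 0.86 for hADMSCs-Exo against LFG (standard error 0.54, adjusted p = 0.849 in edgeR). Pgd of the pentose phosphate pathway had -0.42 against REG (adjusted p = 0.463 in edgeR), with overlapping groups. Pklr, which encodes liver pyruvate kinase and was not among the 3, had -1.26 (-2.69 to 0.18). Acss2 was the 1 of 15 that was higher in REG than in LFG, with 0 lower, and in hADMSCs-Exo against LFG 1 was higher, Mpc1 of the mitochondrial pyruvate carrier (0.66, adjusted p = 0.805 in edgeR), and 0 lower.

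Other genes of fatty acid synthesis and activation numbered 20, of which 18 were tested. In hADMSCs-Exo against REG, 5 were lower and 1 higher at an unadjusted p under 0.05, with a median of -0.20. Acacb, the carboxylase that restrains fatty acid oxidation at mitochondria, had -0.73 (adjusted p = 0.463 in edgeR), and Acsl5, an acyl-CoA synthetase, had -0.50 (adjusted p = 0.463 in edgeR), both with overlapping groups. The remaining lower genes were the elongase Elovl5 (-0.58), Mid1ip1 (-0.89) and Tecr (-0.30). Mid1ip1 encodes a relative and partner of Spot 14, and Tecr a reductase of the elongation cycle. The higher gene was the elongase Elovl3 (2.23), and the adjusted p of these genes was 0.428 to 0.488 in edgeR. Elovl3 was low in REG, with 0.123 to 2.58 CPM, beside 3.31 to 10.8 CPM in hADMSCs-Exo. Scd2, the second desaturase, had a log2 fold change of -0.45 (-0.99 to 0.09). Scd3 and Scd4 did not pass the filter on low counts, and the FPKM of Scd1 was 144 to 1384 times that of Scd2. Acsl5 was the 1 of 18 higher in REG than in LFG (0.53, adjusted p = 0.407 in edgeR), with 0 lower, and in hADMSCs-Exo against LFG 0 were higher and 0 lower with edgeR.

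Of 13 genes of triglyceride assembly, 12 were tested. Their median in hADMSCs-Exo against REG was 0.22, with 1 higher and 0 lower at an unadjusted p under 0.05. That gene was Lpin2, a phosphatidate phosphatase, with 0.80 (adjusted p = 0.413 in edgeR). Its relative Lpin1 had 0.45 (-0.79 to 1.69). Dgat2, the main diacylglycerol acyltransferase for newly made fatty acids, had 0.54 (-0.31 to 1.39) and Dgat1 had 0.34 (-0.08 to 0.76). Mogat2, a monoacylglycerol acyltransferase, was low in LFG, where it had 0.716, 0.391 and 0.358 CPM, beside 6.71, 7.91 and 5.31 CPM in REG and 2.07, 7.53 and 8.82 CPM in hADMSCs-Exo. Its log2 fold change was 3.72 for REG against LFG (standard error 0.43, adjusted p = 0.230 in edgeR), ranking 2 by p among all genes tested, and 3.58 for hADMSCs-Exo against LFG (standard error 0.67, adjusted p = 0.805 in edgeR). For REG against LFG 1 of 12, Mogat2, was higher and 2 were lower, Lpin2 (-1.15, adjusted p = 0.356 in edgeR) and Lpin1 (-1.50, adjusted p = 0.439 in edgeR), and in hADMSCs-Exo against LFG 2 were higher, Mogat2 and Gpat3 (1.03, adjusted p = 0.805 in edgeR), and 0 lower.

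Lipid droplet and lipolysis genes numbered 16, of which 14 were tested. Against REG, 3 were higher and 2 lower in hADMSCs-Exo at an unadjusted p under 0.05. Plin4, a droplet coat protein, had 53.9, 18.9 and 13.4 CPM in hADMSCs-Exo and 10.5, 1.04 and 5.57 CPM in REG (log2 fold change 2.33, adjusted p = 0.411 in edgeR), without overlap. Plin5, which links droplets to mitochondria, had 0.80 (adjusted p = 0.409 in edgeR), and Plin3, a more widely expressed coat protein, had -0.73 (adjusted p = 0.432 in edgeR). The other 2 were Fitm2 (0.41), which serves droplet formation, and Pnpla3 (-1.69), a droplet protein and known SREBP target. Their adjusted p was 0.466 and 0.493 in edgeR. Pnpla3 was low, with 0.0630 to 1.33 CPM in hADMSCs-Exo and 1.54 to 3.77 CPM in REG. From LFG to REG 0 were higher and 2 lower, Cidec (-1.47, adjusted p = 0.345 in edgeR), which enlarges droplets, and Plin4 (-2.14, adjusted p = 0.392 in edgeR). In hADMSCs-Exo against LFG 1 was higher, G0s2, an inhibitor of lipolysis (1.85, adjusted p = 0.805 in edgeR), and 1 lower, Cidec (-1.005, adjusted p = 0.805 in edgeR).

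**Figure D3:**
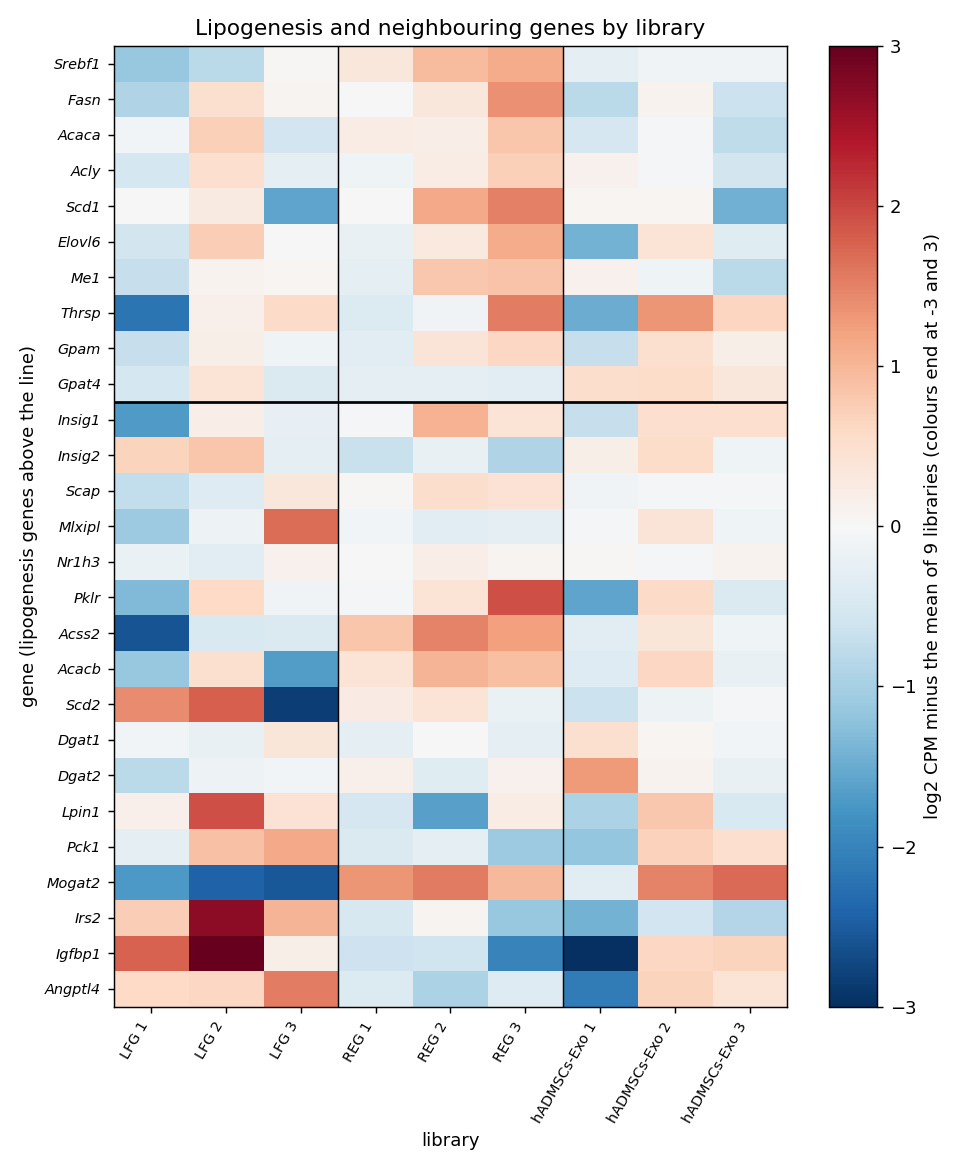
Log2 CPM minus the mean over the 9 libraries (colour, ending at -3 and 3) for the 10 lipogenesis genes, above the line, and 17 neighbouring genes, in LFG, REG and hADMSCs-Exo. Within the upper block the REG 2 and REG 3 columns are mostly above their mean, whereas in hADMSCs-Exo only the Gpat4 row is above its mean in all 3 libraries.

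Lipogenesis is known to respond to feeding and to the time of day, and genes of both responses were read in the same libraries. Whether mice were fasted and at what hour livers were taken is not given in the sources used here. Of 12 genes of the fasting response 11 were tested, all but Fgf21. In REG, 0 were higher and 7 lower than in LFG at an unadjusted p under 0.05 (6.70% of all genes were lower), with a median of -1.50. Igfbp1, which insulin represses, had 289, 1842 and 95.8 CPM in LFG and 55.0, 55.4 and 21.0 CPM in REG (log2 fold change -4.06, adjusted p = 0.333 in edgeR). Pck1, the gluconeogenic enzyme, had a log2 fold change of -1.26 (adjusted p = 0.392 in edgeR) and Angptl4, an inhibitor of lipoprotein lipase, of -1.53 (adjusted p = 0.275 in edgeR), all 3 without overlap, and Lpin1, given above, is also on this list. In hADMSCs-Exo against REG 1 was higher, Pdk4 (0.89, adjusted p = 0.409 in edgeR), which spares pyruvate, and 1 lower, Fbxo21 (-0.57, adjusted p = 0.358 in edgeR), and Pck1 had 0.78 (-0.23 to 1.79). In hADMSCs-Exo against LFG 1 was higher, Cpt1a (0.59, adjusted p = 0.805 in edgeR), the gate of mitochondrial fatty acid oxidation, and 1 lower, G6pc (-2.10, adjusted p = 0.805 in edgeR), the last enzyme of glucose release.

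Of 18 clock genes 17 were tested, and 3 were higher and 2 lower in hADMSCs-Exo than in REG at an unadjusted p under 0.05 (5.34% and 4.69% of all genes). Dbp, a clock output gene, had 128, 44.2 and 62.5 CPM in hADMSCs-Exo and 188, 172 and 138 CPM in REG, and Cry1, a clock repressor, had 9.47, 25.5 and 17.3 CPM against 4.25, 4.94 and 7.43 CPM, both without overlap. The other 3 were Nfil3 (log2 fold change 1.16), without overlap, and Arntl (1.74) and Nr1d1 (-1.32), with overlap. Arntl was low, with 1.07 to 4.40 CPM in hADMSCs-Exo and 0.369 to 1.43 CPM in REG. Compared with LFG, REG had 1 clock gene higher, Per3 (0.84), and 4 lower, Cry1 (-1.32), Per1 (-1.18), Nfil3 (-1.67) and Clock (-0.91), and in hADMSCs-Exo against LFG 0 were higher and 0 lower with edgeR. The part of feeding state and of the hour of sampling in the values of the lipogenesis genes was not tested.

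Over the 9 libraries the lipogenesis genes were mostly positively correlated, Gpat4 excepted. Of their 45 pairs, 39 had a Pearson's r of log2 CPM above 0 and 25 above 0.5. Fasn and Elovl6 had the highest, 0.903, followed by Thrsp and Gpam with 0.892. Among the 36 pairs without Gpat4 the median was 0.593 and the lowest 0.0358, whereas the 9 pairs with Gpat4 lay between -0.269 and 0.176. When group means were subtracted first, 41 of 45 pairs were above 0, and those with Gpat4 lay between -0.159 and 0.749, the latter with Acly. For Gpat4, 3 of its 9 pairs were above 0 over the 9 libraries and 8 of 9 after that subtraction. Srebf1 and Scd1 had 0.429 over the 9 libraries and -0.254 within groups, the lowest of all pairs. These values describe 9 libraries that share their scaling and their groups, and carry no test. Outside the set, the genes most like the mean of the 10, by Pearson's r over the 9 libraries, were Nadk (0.968), Pklr (0.949), Pygl (0.928), Ank (0.924) and Ptcd1 (0.916).

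**Figure D4:**
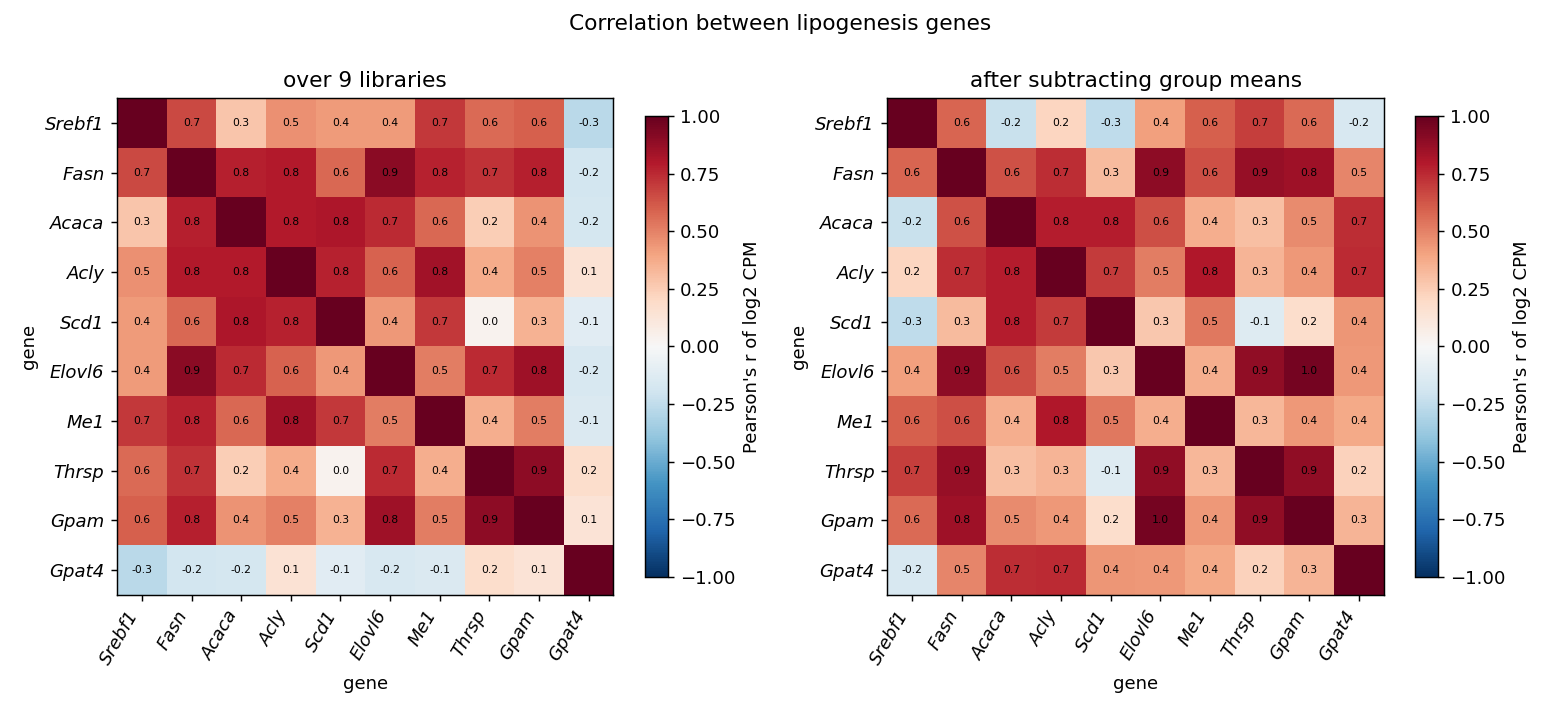
Pearson's r of log2 CPM between the 10 lipogenesis genes over 9 libraries (left) and after subtracting the mean of each group (right), with the value in each cell. The Gpat4 row runs from -0.269 to 0.176 on the left and from -0.159 to 0.749 on the right.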

How the data were processed

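RNA-seq libraries of mouse liver were analysed, 3 each from LFG, REG and hADMSCs-Exo, of the 12 samples in the series. The table's columns headed MSC_E were read as the samples titled Exo, since those titled MSC carry no E, which no source states outright. The authors deposited raw counts per gene and FPKM, and recomputing FPKM from counts, lengths and totals matched it within 9.19e-07 in relative terms. The submitters' processing notes name cutadapt 1.15, HISAT2 2.0.5, HTSeq 0.9.1 and DESeq 1.30.0 on GRCm38, without their settings.

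The test was the two-sided quasi-likelihood test of edgeR 4.0.16 (R 4.3.3) on the counts, with TMM factors (0.808 in LFG 3 to 1.38 in LFG 1), edgeR's filter on low counts, only the 6 libraries compared in each fit and Benjamini-Hochberg adjustment over all genes tested. The call needed an adjusted p under 0.05 together with a log2 fold change of 1 or more in either direction, as in the study's methods. Standard errors are the log2 fold change divided by the root of its F. Log2 CPM had a prior count of 2. On simulated counts the fit was checked only for whether the median log2 fold change came near the planted one. That does not check the counts of genes called, and LFG 3 was not set apart in those counts. Alternatives were RLE size factors, DESeq2 1.42.0, limma 3.58.1 with voom and quality weights or on log2(FPKM + 1), no filter, a filter of 10 counts per library, a joint fit of all 9 libraries, a replicate block, no limit on fold change, and each library left out. A 3 against 3 permutation test cannot go below 0.1 and was not used. Motifs were searched and figures drawn under Python 3.11.15 with pandas 2.3.3 and matplotlib 3.10.9.

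Nothing in the labels says which samples came from separate animals beyond their numbers, so p-values measure the spread between these libraries. Replicates were compared to find duplicate libraries, and 0 such pairs were found (chi-square per gene of 23.4 to 258). Deviations from the group means of same-numbered libraries correlated by 0.101, 0.308 and 0.180 for hADMSCs-Exo and LFG, which alone passed 0.1 in all 3 pairs. The members and all gene lists were chosen with earlier results of these data known. Genes named outside the 10 members were 15 fixed pathway genes, of which Fgf21 failed the filter and 1 is not reported here, and for each comparison up to 5 higher and 5 lower genes of the fixed lists with the smallest unadjusted p under 0.05. Gpat2, Pgd, Elovl3, Elovl5, Mid1ip1, Tecr, Fitm2, Pnpla3, G0s2, Plin4 and Gpat3 where outside that rule, the clock genes and the marker genes, among them Alb, Apoa1, Hnf4a and Cyp2e1, were named after their values were seen. The 5 genes with the highest correlation with the members' mean (Nadk, Pklr, Pygl, Ank and Ptcd1) were named by that rule.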

Additional observations from a re-analysis of the deposited data

How the results depend on the processing

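The count of lipogenesis genes past both thresholds stayed at 0 under every alternative for both comparisons of hADMSCs-Exo. Without LFG 3, 5.97% of all genes were called for hADMSCs-Exo against LFG. For REG against LFG the count was 1 (Srebf1) with DESeq2 and with voom. Among the fits that left out 1 library (0 to 1) it was 1 without LFG 3, where 1391 of all genes were also called in place of 0. The count at an unadjusted p under 0.05, 1 for REG against LFG, was 2 with DESeq2 (14.1% of all genes), 2 with the replicate block (8.61%) and 1 to 3 with a library left out, the highest without REG 1 (6.22%), and it was 1 without LFG 3 (37.3%). For hADMSCs-Exo against LFG it was 0, but 2 with voom (28.1% of all genes) and 1 in a joint fit of all 9 libraries (9.74%). With a library left out it was 0 to 2, with 1 without LFG 2 (3.97%) and 2 without LFG 3 (28.5%). For hADMSCs-Exo against REG it was 6, 4 in the joint fit (3.79% of all genes), and 3 to 7 with a library left out. The 7 came without REG 1 (10.6% of all genes), and the 3 without REG 3 (10.7%) and without hADMSCs-Exo 3 (9.57%). With a library left out, the medians of the 10 genes ran from 0.19 (without REG 3, in place of 0.58) to 0.87 for REG against LFG, and for the comparisons of hADMSCs-Exo with LFG and with REG from -0.13 to 0.27 and from -0.99 to -0.46, while for hADMSCs-Exo against LFG voom gave -0.39 in place of -0.07. The cause of these shifts was not tested, apart from the libraries or the model that define each setting. Same-numbered libraries correlated above 0.1 in every pair only for hADMSCs-Exo and LFG. There the replicate block left both counts at 0 (5.72% of all genes at an unadjusted p under 0.05) and the median at -0.03. The correlations were 0.415, -0.202 and 0.305 for REG and LFG, and 0.159, 0.00938 and 0.0336 for hADMSCs-Exo and REG. For these the block gave 2 and 6 genes at an unadjusted p under 0.05 (8.61% and 9.52% of all genes), with 0 past both thresholds. In each comparison the libraries share only a number, and no label pairs them. None of the lipogenesis genes with an unadjusted p under 0.05 in a comparison changed direction in any of its 14 alternatives, which were not run for the genes of the other lists one by one. The lowest count of any of the 10 genes in a library was 602.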
